A study of Mus musculus with 20 samples.

Results

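The replication-dependent histone genes supply the histones that package newly copied DNA. Here they were taken as every gene of the count table whose symbol begins with Hist1h, Hist2h, Hist3h or Hist4h, with pseudogenes marked -ps left out. This gave 69 of 37620 genes, of which 6 encode the linker histone H1, 20 encode H2A, 18 encode H2B, 12 encode H3 and 13 encode H4. RNA came from bulk bone marrow of 20 mice, 5 in each of 4 groups that combine the transgene, U2AF1(WT) or U2AF1(S34F), with the infusion, vehicle or sudemycin D6. They are called WT-vehicle, WT-sudemycin, S34F-vehicle and S34F-sudemycin, and values for the 4 groups are given in that order. U2AF1 recognizes the 3′ end of introns, S34F is its recurrent mutation in myelodysplastic syndromes, and sudemycin D6 binds the spliceosome protein SF3B1. Marrow of transgenic donors was transplanted into irradiated wild-type recipients, and after at least 6 weeks of engraftment every mouse, controls included, ate doxycycline chow (625 ppm) for 7 days. The chow switched on a human U2AF1 transgene through rtTA, so the WT groups also carried an induced transgene, and drug or vehicle was infused on the last 5 days. Donor marrow was pooled from several young adult mice, and recipients were young adults matched to the donors for sex.

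Histone mRNAs of this kind are made in S phase together with DNA, and most of their genes have no intron. Their messages end in a conserved stem-loop in place of a poly(A) tail. The stem-loop binding protein (Slbp) holds that hairpin, and the U7 snRNP and Cpsf3 cut the RNA just after it. The genes lie in clusters, and many copies of a class encode the same protein. The libraries were made from total RNA after removal of ribosomal RNA, so that transcripts without a poly(A) tail were kept.

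The hairpin was searched for in the genome sequence of build mm9 within 150 bases after the stop codon, as a 16-base element that starts with GG and has a stem of 6 pairs, a loop of 4 bases and at most 1 G-T pair. It was present in 64 of the 67 histone genes with an annotated coding end (95.5%), and in 534 of 22270 other coding genes (2.40%). The element began 22 to 59 bases after the stop codon (median 31.5). No match was found for Hist1h2al, Hist2h2bb and Hist2h2be. For Hist2h2bb the annotated stop codon lies in the exon after a long intron, so the window did not cover the bases between that gene's exons. The 64 hairpins had 9 sequences, and the lines below show one gene for each of the 3 commonest and the genes on which the later results turn, with the stem and loop in capitals and 5 flanking bases on each side.
Hist1h1c, linker histone, chr13:23831381-23831396, plus strand: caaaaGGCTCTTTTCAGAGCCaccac
Hist1h2bb, H2B, chr13:23839072-23839087, plus strand: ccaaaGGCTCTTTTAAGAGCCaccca
Hist1h4d, H4, chr13:23673819-23673834, plus strand: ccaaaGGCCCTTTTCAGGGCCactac
Hist1h4m, H4, chr13:21903998-21904013, plus strand: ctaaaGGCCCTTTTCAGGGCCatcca
Hist1h4n, H4, chr13:21923667-21923682, minus strand: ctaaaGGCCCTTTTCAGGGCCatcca
Hist1h2bc, H2B, chr13:23776516-23776531, plus strand: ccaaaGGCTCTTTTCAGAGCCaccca
Hist1h2bp, H2B, chr13:21879792-21879807, plus strand: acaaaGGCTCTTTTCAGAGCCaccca
The form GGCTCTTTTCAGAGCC was shared by 39 genes, none of them H4. The form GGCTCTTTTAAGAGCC was found in 9 genes of H1, H2A, H2B and H3. The form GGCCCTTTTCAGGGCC, with a C-G in place of a T-A pair in the stem, was found in 8 genes, all of them H4. In Hist1h4m and Hist1h4n the hairpin and its flanks were identical.

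Of the 69 genes, 56 belong to the Hist1 cluster on chromosome 13, where 19 lie at 21807632 to 21929399, 5 at 22126982 to 22135545, 31 at 23622919 to 24026720 and 1, Hist1h2al, at 51298057 to 51298434 (mm9). The Hist2 cluster holds 10 genes at 96023839 to 96082924 of chromosome 3. Hist3h2a and Hist3h2ba are on chromosome 11 and Hist4h4 is on chromosome 6. A single exon was annotated for 62 genes, and 2 genes (Hist1h2aj and Hist2h3c2) were annotated as pseudogenes. Because copies are alike, each gene's exons were read in windows of 126 bases, the length of a read, and searched for elsewhere in the genome. Only exact matches, on either strand, were counted, so a window that differs from a copy by a single base did not count as shared. In 13 genes no window recurred, and in 21 genes over 50% did. Every window of Hist1h2ao, Hist1h2ap, Hist1h2bq, Hist1h2br, Hist2h2aa1 and Hist2h2aa2 was found at another place, so the counts of these 6 genes depend on how reads with several origins were treated, which is not given in the sources used here.

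Each mouse had 41.1 to 62.1 M gene counts. Levels are given as CPM, counts relative to library size with TMM scaling over all mice, and a floor of 3 counts was worth 0.0504 to 0.0712 CPM. The genotypes also differed in sex-linked transcripts. Xist was at 879 to 1593 CPM in the 10 U2AF1(WT) mice and at 0.0198 to 0.145 CPM in the 10 U2AF1(S34F) mice, and the Y-linked Ddx3y was at 0 in every U2AF1(WT) mouse and at 39.3 to 76.0 CPM in U2AF1(S34F) mice. The effects of genotype and of sex on the histone genes therefore cannot be told apart. Donor marrow was pooled separately for each genotype, so effects of the donor pool cannot be told apart from those of genotype either. U2af1 itself was at 36.1 ± 1.38 CPM (SD, n=5) in WT-vehicle mice and 51.0 ± 3.32 in S34F-vehicle mice. The table counts reads on the mouse gene, and the transgene was not counted apart.

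Per kilobase of annotated exon, genes of H4, H1 and H2B had the highest levels. These ranks depend on the annotated length, which in some genes runs past the hairpin. Hist1h1d, at 228 CPM per kb over 3821 bases, is annotated to base 23650721, where its hairpin ends at 23647671. Levels up to the hairpin alone were not computed. Hist1h4d was first at 1064 CPM per kb (mean over 20 mice), followed by Hist1h1e (970), Hist1h4f (878), Hist1h2bb (638) and Hist1h1c (637). The 2 highest H2A genes were Hist1h2ak (409) and Hist1h2ab (315), the second H2B gene was Hist1h2bh (327), and the H3 genes Hist1h3c (387) and Hist1h3i (329) led their class. These 10 genes are all in the Hist1 cluster. At the other end, Hist1h2aa had 0 counts in all mice, which allows up to the floor of 3 counts a mouse, Hist2h2aa1 had 0 to 2 counts and Hist1h2aj had 2 to 9. These 3 were too low to test, and the other 66 were tested in every comparison. Hist1h1t and Hist1h2ba, the testis forms of H1 and H2B, were low, at 0.0177 to 1.01 CPM, which reaches below the floor, and at 0.344 to 0.925 CPM, which is above it in every mouse. A list of 8 germ cell genes summed to 0.0181 to 0.427 CPM, with 3 of the 8 at 0 counts everywhere.

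Class sums do not depend on how reads are divided among copies of one class, although they would miss reads that were dropped for having several origins. All histone genes together came to 7781, 9978, 6806, 7580 and 8964 CPM in WT-vehicle mice 1 to 5, and to 9399, 9966, 12796, 8685 and 6533 CPM in WT-sudemycin mice 6, 8, 9, 10 and 12. They came to 9965, 10012, 9070, 10494 and 9819 CPM in S34F-vehicle mice 1, 3, 5, 7 and 11, and to 9918, 9798, 9860, 9013 and 9796 CPM in S34F-sudemycin mice 2, 6, 9, 10 and 12. Both extremes, mice 9 and 12, were in the WT-sudemycin group, and the U2AF1(S34F) mice lay close together. The means were 8222 ± 1250, 9476 ± 2267, 9872 ± 515 and 9677 ± 375 CPM (SD, n=5), and the groups overlapped in every comparison. In bulk marrow, fewer cells in S phase and less histone RNA in each cell cannot be told apart.

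**Figure D1:**
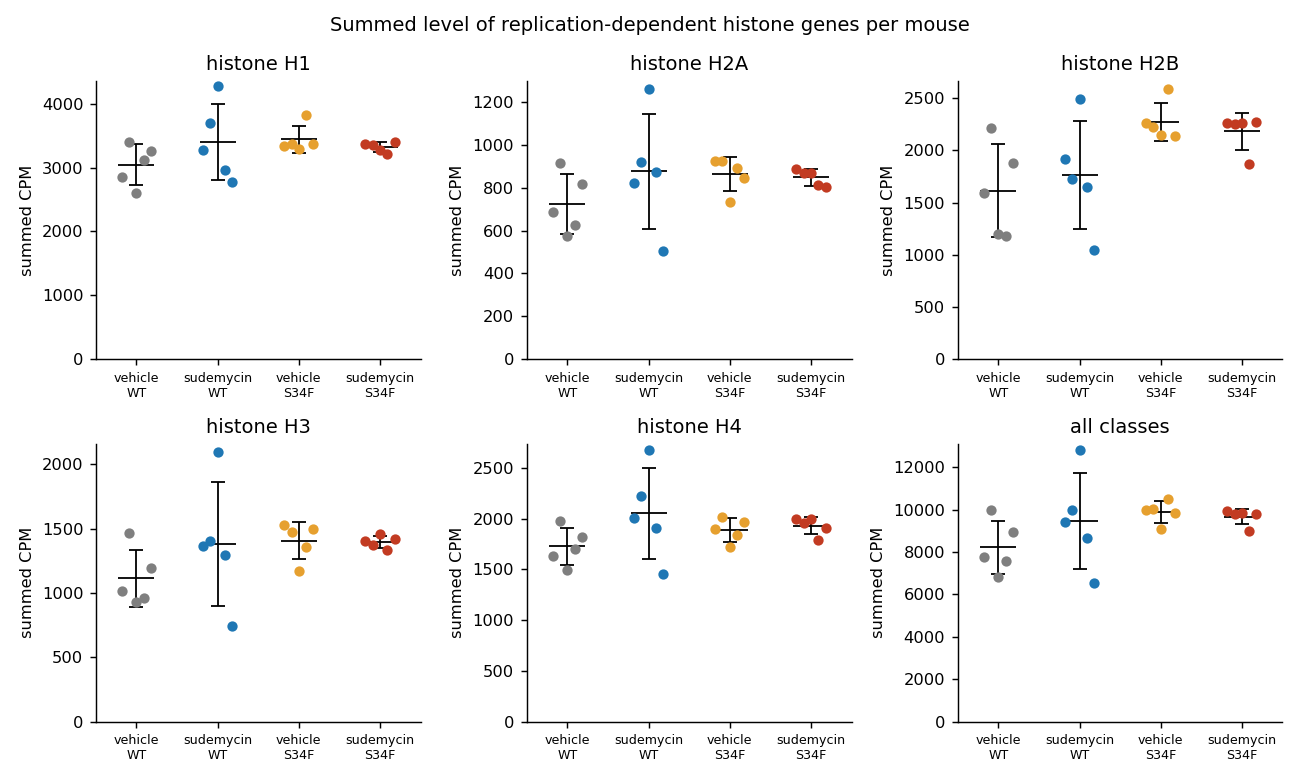
Summed CPM of the histone genes of each class and of all classes (y axis, from 0) in each mouse (points), by group, with bars for the mean and SD of 5 mice. In every panel the groups overlap; the widest spread is in WT-sudemycin mice (6533 to 12796 CPM for all classes).

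These sums are not scaled to exon length, so they do not rank the classes by number of transcripts. Exons of the H1 genes ran from 743 bases (Hist1h1b) to 3821 (Hist1h1d), beside 393 in the H4 gene Hist1h4d. H1, which binds the linker DNA between nucleosomes, had the highest summed CPM, at 3046 ± 319, 3400 ± 600, 3441 ± 213 and 3319 ± 76.4 in the same order. H4 followed at 1726 ± 183, 2053 ± 447, 1887 ± 117 and 1929 ± 85.9 CPM. As in every class, WT-vehicle was lowest in mean and the groups overlapped. H2B, which pairs with H2A in the nucleosome, stood at 1612 ± 445, 1765 ± 520, 2273 ± 184 and 2183 ± 178 CPM. Its share of all histone CPM was 19.3% ± 2.70, 18.4% ± 1.74, 23.01% ± 1.18 and 22.5% ± 1.03. Under sudemycin these shares did not overlap between genotypes (16.05 to 20.4% against 20.7 to 23.2%), whereas under vehicle they did (15.5 to 22.2% against 21.7 to 24.7%). The H4 share behaved alike in the other direction. It was apart under sudemycin (20.9 to 22.3% against 19.4 to 20.3%) and overlapped under vehicle (19.8 to 22.4% against 17.5 to 20.1%). H3 came to 1113 ± 223, 1381 ± 479, 1406 ± 144 and 1397 ± 45.3 CPM. H2A, the class with most genes, had the lowest sum, at 725 ± 139, 877 ± 269, 865 ± 81.3 and 849 ± 38.0 CPM. No test was made of sums or shares.

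The first question was whether the drug changed histone expression in marrow with WT U2AF1. No histone gene passed FDR<10% (edgeR quasi-likelihood test, Benjamini-Hochberg adjustment over all genes), where 3.07% of 14763 genes did (1.18% higher and 1.89% lower). At an unadjusted p below 0.05 there were 5, and DESeq2 also called 0. Of the 66 genes, 54 had a positive log2 fold change, with a median of 0.22 beside 0.00 over all genes tested. All 13 H4 genes were positive, from 0.16 to 0.43. The treated group had a wide spread, and the same mice were at its ends in most genes: mouse 9 was the highest in 59 of the 66 genes and mouse 12 the lowest in 57. Hist1h4d, for example, was at 442, 498, 567, 415 and 342 CPM in mice 6, 8, 9, 10 and 12, against 368, 440, 366, 391 and 400 CPM under vehicle. Without mouse 9 the median was 0.05, and leaving out vehicle mouse 2 or treated mouse 12 gave 1 call in each case.

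In U2AF1(S34F) mice 4 histone genes passed, or 6.06% of the 66, where 10.8% of all genes did (4.94% higher and 5.85% lower). Hist1h1a, which encodes H1.1, rose, and Hist1h1c, Hist1h2ac and Hist1h2bc fell. The last 3 are histone genes that are also known to give polyadenylated mRNA in cells that have left the cycle. Polyadenylated forms were not counted apart, so a change in them was not tested. All 4 lie in the 31-gene block of the Hist1 cluster.

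Hist1h1a was at 284, 289, 322, 282 and 283 CPM in S34F-vehicle mice and at 344, 367, 311, 404 and 352 CPM under the drug (log2 fold change 0.28, SE 0.08, adjusted p=0.0486). Only treated mouse 9 was within the range of the vehicle group. Hist1h1c was at 1016, 1088, 921, 1130 and 1034 CPM with vehicle and at 925, 915, 852, 789 and 865 CPM with sudemycin D6 (−0.26, SE 0.07, adjusted p=0.0582). Here the groups overlapped in 1 mouse on each side. Hist1h2bc was at 92.8, 84.8, 82.1, 85.7 and 87.5 CPM with vehicle and at 81.5, 81.4, 71.6, 70.5 and 75.2 CPM with sudemycin D6 (−0.19, SE 0.06, adjusted p=0.0791), and it was the 1 histone gene of this comparison whose groups did not overlap, where this held for 7.8% of all genes. Hist1h2ac, the H2A gene next to it, fell from 64.3 ± 4.21 to 56.2 ± 4.40 CPM (−0.20, SE 0.06, adjusted p=0.0881), with overlapping groups. The median over 66 genes was −0.01, the same as over all genes tested.

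The 4 calls were small and depended on single mice. None passed without vehicle mouse 1 or without vehicle mouse 11. Without treated mouse 9, 10 or 12 there was 1 call, and without vehicle mouse 3 there were 2. In U2AF1(WT) mice the same genes had log2 fold changes of 0.30 (Hist1h1a), 0.00 (Hist1h1c), 0.07 (Hist1h2ac) and −0.06 (Hist1h2bc), none of which passed. The test of the difference itself, the interaction of genotype and drug on all 20 mice, called 0 of the 66 histone genes (0.013% of all genes were called), with 1 at an unadjusted p below 0.05 and 0 by DESeq2. The interaction was negative for 58 of the 66 genes and had a median of −0.24, beside −0.04 over all genes. Without WT-sudemycin mouse 9 the median was −0.05, and 21 of the 66 genes were positive in place of 8.

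**Figure D2:**
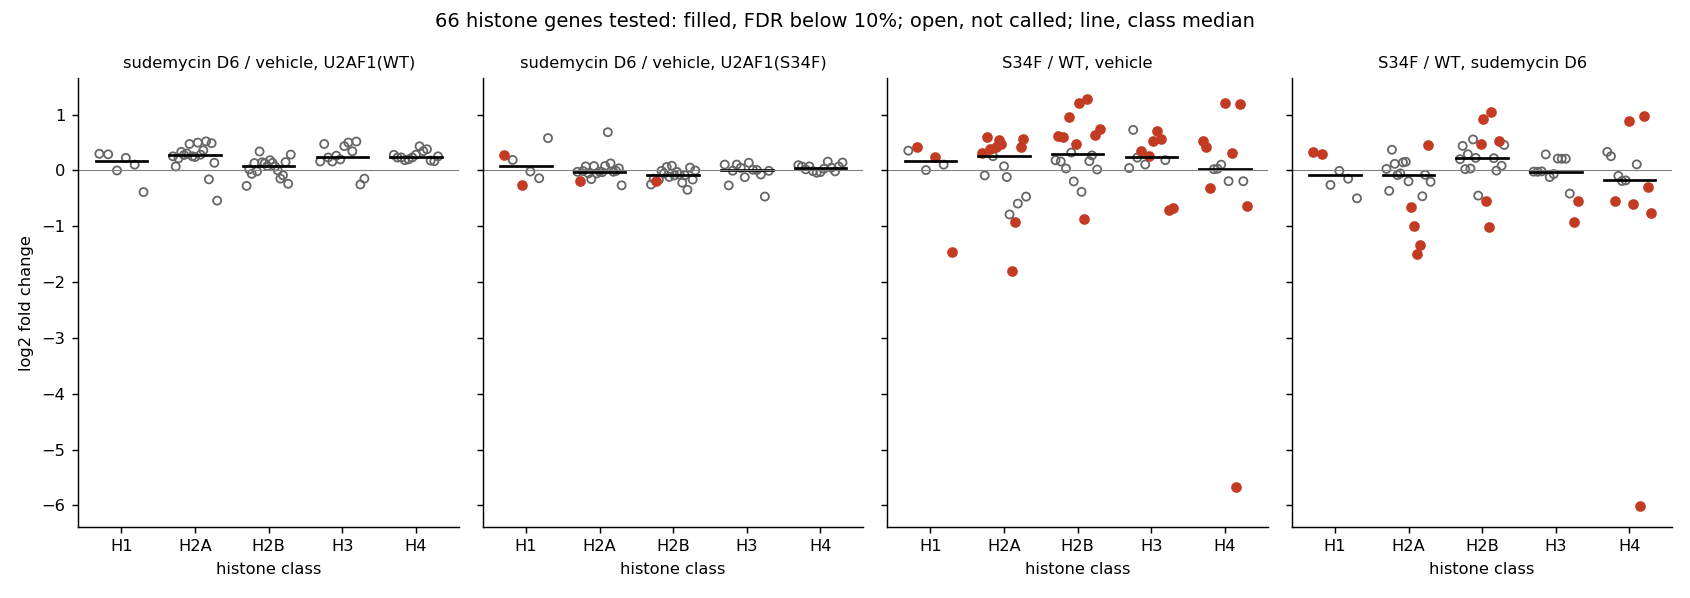
Log2 fold changes (y axis) of the 66 histone genes tested, by class, in the 4 comparisons of drug and genotype. Filled points passed FDR<10%, open points did not, and lines are class medians. Filled points number 0 and 4 for the drug and 37 and 22 for the genotype, and Hist1h4m is the point near −6.

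The genotypes differed in many more histone genes. Under vehicle 37 of 66 passed (56.1%), where 39.5% of all genes did. Of these, 28 were higher in U2AF1(S34F) mice (42.4% of the 66, against 19.7% of all genes) and 9 were lower (13.6% against 19.8%). The median was 0.24 beside 0.00 over all genes. For 16 of the 66 genes the groups did not overlap, where this held for 20.2% of all genes. Without scaling factors between libraries the calls divided into 21 higher and 11 lower. Without WT-vehicle mouse 1, 3 or 4 the number higher was 17 in each case, with 8, 11 and 9 lower, and at an FDR of 5% the calls were 16 higher and 8 lower.

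Each class had calls in both directions, but in H1, H2A and H3 the genes that fell were all at low levels. They were Hist1h1t, Hist1h2ao, Hist1h2ap, Hist2h3c1 and Hist2h3c2. The highest level among them in any mouse was 6.82 CPM, in Hist2h3c2. Apart from Hist1h1t, 50.7 to 100% of the windows of these genes recurred elsewhere. For H2A, 8 of 17 genes rose and 2 fell, and for H2B 8 of 18 rose and 1 fell. For H3, 5 of 12 rose and 2 fell. For H4, 5 of 13 rose and 3 fell, and for H1, 2 of 6 rose and 1 fell. The class medians ran from 0.03 (H4) to 0.29 (H2B).

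Under sudemycin D6, 22 of 66 histone genes passed (33.3%), where 36.8% of all genes did. The balance was 9 higher (13.6%, against 17.2% of all genes) and 13 lower (19.7%, against 19.6%), with a median of −0.01 beside −0.03. Among the 9 that rose were 4 H2B genes, and among the 13 that fell were 5 H4 and 4 H2A genes. The U2AF1(WT) mice under the drug were the group with the widest spread. The balance turned with single mice of that group: without mouse 9 the calls were 18 higher and 8 lower with a median of 0.12, and without mouse 12 they were 7 higher and 20 lower with a median of −0.15. These groups share no mouse with the vehicle comparison. In both, 16 genes passed, which were 43.2% of the 37 and 72.7% of the 22, and all 16 kept their sign, 8 higher and 8 lower. Over all 66 genes, 49 had the same sign under vehicle and under drug. The matching shares over all genes were not counted, and both comparisons carry the same difference in sex.

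The 8 that rose with both treatments were Hist1h1b, Hist2h2ac, Hist1h2bk, Hist1h2bl, Hist1h2bp, Hist2h2bb, Hist1h4i and Hist1h4n. Hist1h2bp, an H2B gene, was at 27.0, 39.8, 20.5, 16.7 and 30.7 CPM in WT-vehicle mice and at 62.3, 72.4, 61.5, 70.9 and 63.7 CPM in S34F-vehicle mice (1.28, SE 0.19, adjusted p=0.000811). With sudemycin D6 the levels were 31.7, 20.3, 36.95, 28.3 and 19.5 CPM against 64.97, 68.5, 48.4, 49.2 and 53.2 CPM (1.05, SE 0.18, adjusted p=0.00147). The groups were apart under either treatment.

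Hist1h2bl, another H2B gene, was at 45.2, 72.2, 31.9, 36.8 and 63.0 CPM in WT-vehicle mice and at 114, 115, 106, 123 and 123 CPM in S34F-vehicle mice (1.21, SE 0.20, adjusted p=0.00127). Under the drug it rose from 57.3 ± 18.3 to 109.3 ± 7.998 CPM (0.93, SE 0.19, adjusted p=0.00424). Again no mouse of one genotype reached the range of the other. Hist1h4i, an H4 gene, was at 47.0, 54.3, 43.4, 45.7 and 56.3 CPM with WT and at 122, 116, 98.1, 111 and 127 CPM with S34F under vehicle (1.21, SE 0.09, adjusted p=2.89e-06). With sudemycin D6 it was at 66.2, 49.8, 72.8, 67.3 and 47.6 CPM against 122, 114, 124, 97.1 and 107 CPM (0.89, SE 0.13, adjusted p=0.000561). Its groups were apart in both, and 14.6% of its windows recurred elsewhere, so most of its windows had no exact match at another place. Hist2h2bb, an H2B gene, went from 285 ± 88.7 to 447 ± 44.3 CPM under vehicle (0.64, SE 0.17, adjusted p=0.0146), and from 321 ± 67.1 to 464 ± 19.3 CPM under the drug (0.53, SE 0.13, adjusted p=0.00996), where its groups did not overlap. Hist1h1b, the gene for H1.5, rose by 0.41 under vehicle and 0.30 under the drug on the log2 scale.

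The 8 that fell with both treatments were Hist1h2ao, Hist1h2ap, Hist1h2bn, Hist2h3c1, Hist2h3c2, Hist1h4c, Hist1h4m and Hist4h4. Hist4h4, an H4 gene that stands alone on chromosome 6 and has no window in common with another place, was at 56.9, 88.1, 49.8, 62.2 and 63.7 CPM with WT and at 39.3, 38.7, 43.6, 42.2 and 43.3 CPM with S34F under vehicle (−0.64, SE 0.13, adjusted p=0.00232). Under sudemycin D6 it was at 72.4, 89.0, 92.6, 66.3 and 67.3 CPM against 46.4, 48.6, 42.7, 49.8 and 41.3 CPM (−0.76, SE 0.10, adjusted p=0.000388). Every U2AF1(S34F) mouse was below the lowest U2AF1(WT) mouse of the same treatment. Hist1h2bn fell from 82.6 ± 18.5 to 45.6 ± 5.40 CPM under vehicle (−0.87, SE 0.14, adjusted p=0.000771) and by 1.02 on the log2 scale under the drug. Hist1h4c fell by 0.32 under vehicle and 0.55 under the drug, and Hist2h3c1, an H3 gene at 1.01 to 3.74 CPM, fell by 0.70 and 0.92 on the same scale. Exons of Hist2h3c1 overlap those of Hist2h2aa1 on the same strand.

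Hist1h2ao and Hist1h2ap, H2A genes of which no part is unique, were called at levels below 4 CPM. Hist1h2ao was at 0.889, 1.55, 0.831, 0.705 and 0.986 CPM in WT-vehicle mice and at 0.296, 0.218, 0.148, 0.248 and 0.385 CPM in S34F-vehicle mice (−1.81, SE 0.32, adjusted p=0.000801), and the log2 fold change under the drug was −1.49 (SE 0.42, adjusted p=0.0161). Hist1h2ap had log2 fold changes of −0.93 (SE 0.36, adjusted p=0.0512) and −1.33 (SE 0.41, adjusted p=0.0246). The sum of both genes was 1.85 ± 0.58 CPM in WT-vehicle mice and 0.699 ± 0.239 CPM in S34F-vehicle mice. Hist1h1t was called under vehicle (−1.46, SE 0.47, adjusted p=0.0211) at a mean of 0.724 ± 0.182 CPM against 0.242 ± 0.165 CPM, and under the drug its value was −0.50 (adjusted p=0.522).

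The largest difference was in Hist1h4m. It was at 30.6, 36.7, 20.4, 23.5 and 33.96 CPM in WT-vehicle mice, and at 32.8, 44.5, 65.6, 31.1 and 18.1 CPM in WT-sudemycin mice. In U2AF1(S34F) mice it was at 0.591, 0.504, 0.425, 0.601 and 0.560 CPM with vehicle and at 0.453, 0.421, 0.381, 0.603 and 0.933 CPM with the drug. Thus all 10 U2AF1(WT) mice were above 18 CPM and all 10 U2AF1(S34F) mice were below 1 CPM. The log2 fold change was −5.68 (SE 0.19, adjusted p=1.56e-10) under vehicle and −6.02 (SE 0.38, adjusted p=2.39e-06) under sudemycin D6. The lowest mouse still had 21 counts.

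Hist1h4m has a near-identical neighbour. Hist1h4n lies on the other strand, at 21923636 to 21924065 of chromosome 13, where Hist1h4m is at 21903615 to 21904016. Their coding sequences of 309 bases differ at 0 positions, and 87.0% and 88.2% of their windows recur elsewhere. All 13 H4 genes encode one protein of 103 residues, although the coding sequence of Hist4h4 is 86.4% identical to that of Hist1h4m (42 bases differ). Hist1h4n moved the other way. It was at 51.0, 81.6, 37.5, 42.3 and 64.7 CPM with WT and at 137, 144, 120, 109 and 126 CPM with S34F under vehicle (1.18, SE 0.18, adjusted p=0.00095). Under the drug it was at 67.6, 48.3, 99.7, 68.5 and 33.7 CPM against 122, 144, 148, 92.6 and 123 CPM (0.98, SE 0.24, adjusted p=0.0107). These groups were apart under vehicle and overlapped under sudemycin D6, in WT mouse 9 and S34F mouse 10.

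The pair was therefore also added up. The sum was 84.5 ± 24.6, 102 ± 40.7, 128 ± 13.9 and 126 ± 21.95 CPM in the 4 groups, and the genotypes overlapped in both treatments. The share of Hist1h4m in the pair was 34.8% ± 2.39, 37.3% ± 6.76, 0.425% ± 0.082 and 0.464% ± 0.222. The division between the pair differed by genotype far more than their sum did. How the reads of each copy were assigned was not tested. The other H4 genes summed to 1642 ± 160, 1951 ± 409, 1759 ± 108 and 1803 ± 68.7 CPM, with overlapping groups.

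**Figure D3:**
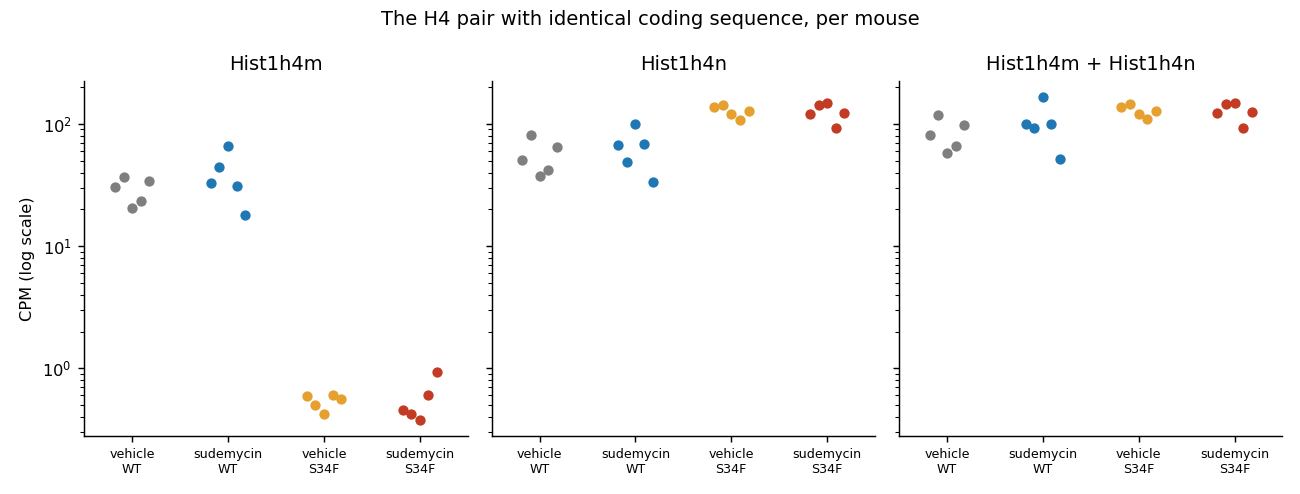
CPM on a log scale (y axis) of Hist1h4m, Hist1h4n and their sum in each mouse (points), by group. Hist1h4m is below 1 CPM in all 10 U2AF1(S34F) mice and above 18 CPM in all U2AF1(WT) mice, while the sums overlap.

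Along the Hist1 cluster, genes called in opposite directions stood side by side. In the 19-gene block, where a median of 59.4% of a gene's windows recurred elsewhere, 12 of 18 genes passed under vehicle (8 higher and 4 lower), and 11 of 18 under sudemycin D6 (4 higher and 7 lower). Hist1h2bn and Hist1h1b are neighbours there that passed with opposite signs under both treatments, and Hist1h2an and Hist1h2bp did so under sudemycin D6. Summed over this block the genes came to 1213 ± 250 and 1550 ± 69.4 CPM under vehicle, with overlapping groups. In the 31-gene block, with a median of 27.0% of windows shared, 14 of 30 genes passed under vehicle (12 higher and 2 lower) and 2 of 30 under sudemycin D6 (Hist1h1a higher and Hist1h4c lower). Of the 12 tested genes with no shared window, 7 passed under vehicle (5 higher and 2 lower) and 6 under the drug (4 higher and 2 lower), where 39.5% and 36.8% of all genes passed. The genes with over 50% of windows shared gave 12 of 19 and 8 of 19. The hairpin forms were spread over both directions as well, and the commonest form had 15 genes higher and 4 lower of 37 tested under vehicle.

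**Figure D4:**
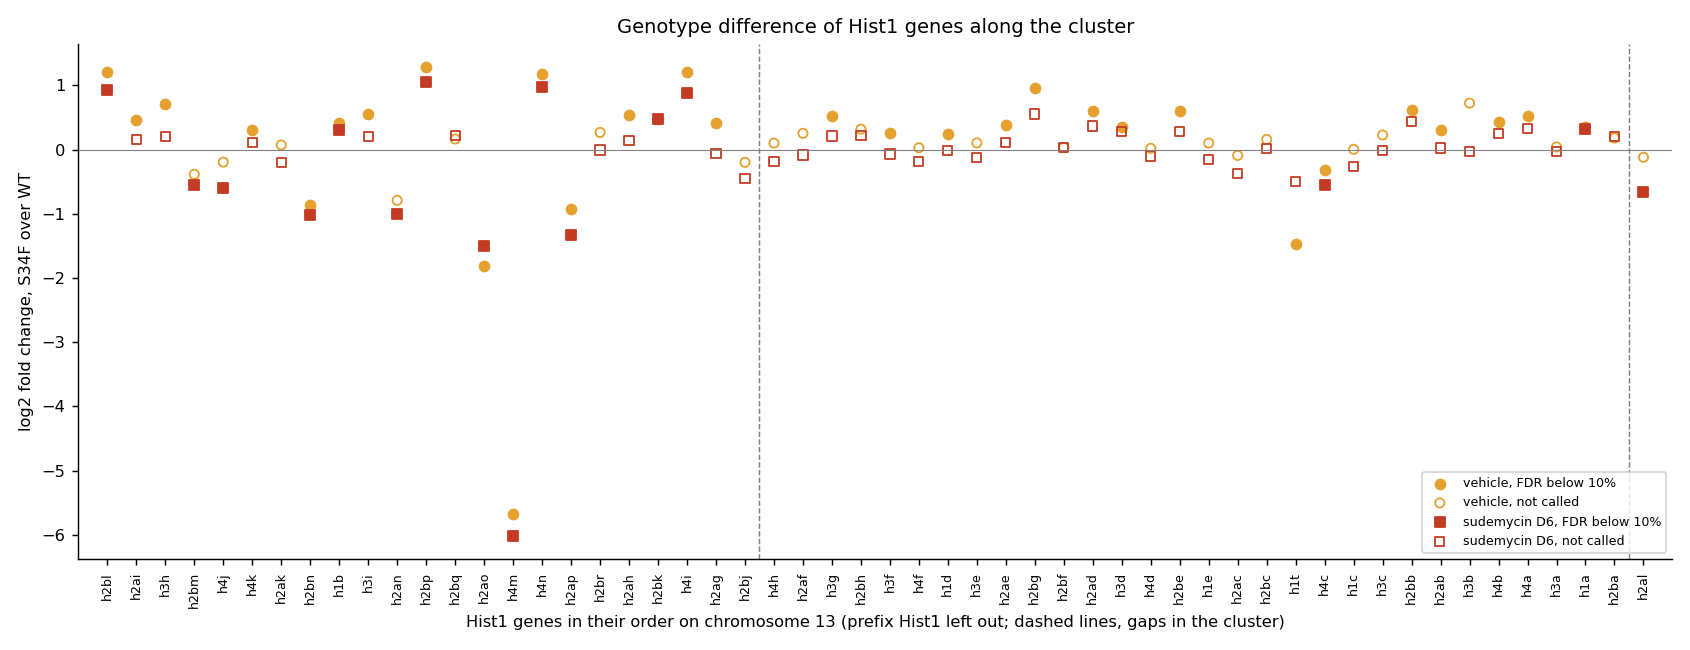
Log2 fold change of U2AF1(S34F) over U2AF1(WT) mice (y axis) for the tested Hist1 genes in their order on chromosome 13 (x axis), under vehicle (circles) and sudemycin D6 (squares), filled where FDR<10%. Dashed lines mark gaps in the cluster; the left part holds Hist1h4m near −6 next to Hist1h4n near 1.

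The largest contrast of the design sets U2AF1(S34F) mice given sudemycin D6 against U2AF1(WT) mice given vehicle, and it shares both groups with the comparisons above. It called 42 of 66 histone genes (63.6%, where 50.2% of all genes passed), 29 higher (43.9%, against 25.1%) and 13 lower (19.7%, against 25.1%), with a median of 0.16. Hist1h4m (−5.62), Hist2h3c1 (−1.15) and Hist1h2ao (−1.11) fell most, and Hist1h4i (1.19), Hist1h4n (1.18) and Hist1h2bl (1.13) rose most. Hist1h1a was at 226 ± 74.6 CPM in the WT-vehicle group and at 356 ± 34.1 CPM here (0.65, SE 0.17, adjusted p=0.0104), and its value under each drug comparison was 0.30 and 0.28.

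Genes that make and process histone mRNA were compared as a list, of which 18 of 19 names were found (Slbp2 was not) and all 18 were tested. The counts of this and the later lists by genotype stand beside 19.7% of all genes higher and 19.8% lower under vehicle, and 17.2% higher and 19.6% lower under sudemycin D6. Under vehicle 9 were higher in U2AF1(S34F) mice and 2 lower, and the same numbers held under sudemycin D6. Casp8ap2 (FLASH), which brings the 3′ processing machinery to histone pre-mRNA, rose from 65.5 ± 9.45 to 108 ± 7.62 CPM under vehicle (0.71, SE 0.10, adjusted p=0.00027) and by 0.57 under the drug. Ccne2, a cyclin that with Cdk2 starts S phase and histone transcription, rose from 20.1 ± 4.75 to 39.1 ± 3.84 CPM (0.95, SE 0.14, adjusted p=0.000377) and by 0.82 under the drug. Slbp itself was at 99.1 ± 6.94, 101 ± 4.63, 121 ± 6.99 and 116 ± 8.08 CPM in the 4 groups. The drug raised Ncbp1, a subunit of the nuclear cap-binding complex, in both genotypes, from 70.9 ± 4.28 to 90.3 ± 2.91 CPM in U2AF1(WT) mice (0.33, SE 0.07, adjusted p=0.0385) and from 69.0 ± 1.87 to 84.4 ± 2.43 CPM in U2AF1(S34F) mice (0.29, SE 0.04, adjusted p=0.00397). This was the 1 call of the list in U2AF1(WT) mice. In U2AF1(S34F) mice Lsm10, a protein of the U7 snRNP, also fell, from 13.8 ± 1.09 to 11.8 ± 0.55 CPM (−0.23, SE 0.07, adjusted p=0.0875).

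Histone variants called replication-independent, which can be put into chromatin outside S phase, were compared as a further list. Of 11 tested, 3 were higher and 1 lower in U2AF1(S34F) mice under vehicle, and 2 higher and 1 lower under the drug. H3f3b, one of the genes for H3.3, fell from 952 ± 142 to 578 ± 69.9 CPM under vehicle (−0.73, SE 0.12, adjusted p=0.000773) and from 750 ± 51.0 to 474 ± 44.5 CPM under sudemycin D6 (−0.66, SE 0.09, adjusted p=0.000323). H2afz, the gene for H2A.Z, rose by 0.39 and 0.28. With the drug in U2AF1(S34F) mice H3f3b fell again (−0.29, SE 0.09, adjusted p=0.0799), as did H1f0, the linker histone of resting cells (−0.35, SE 0.09, adjusted p=0.037). In U2AF1(WT) mice edgeR called 0 variants, with 2 at an unadjusted p below 0.05.

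Histone chaperones carry new histones to DNA. Of 12 tested, 8 were higher and 1 lower in U2AF1(S34F) mice under vehicle, and 6 higher and 1 lower under sudemycin D6. Asf1a, which hands H3 and H4 to other chaperones, rose by 0.50 (SE 0.12, adjusted p=0.00693) under vehicle, and Hat1, which acetylates new H4, rose by 0.41 (SE 0.09, adjusted p=0.00604) under the drug. Of 20 DNA replication genes of S phase, 13 rose and 0 fell under vehicle and 15 rose and 0 fell under the drug. Tyms, which makes thymidylate, went from 52.6 ± 6.68 to 79.5 ± 3.24 CPM (0.58, SE 0.09, adjusted p=0.0005) and from 54.0 ± 5.74 to 82.1 ± 4.90 CPM (0.60, SE 0.08, adjusted p=0.000419). Prim1, a primase subunit, rose by 0.60 under the drug. The list summed to 1782 ± 260, 1849 ± 126, 2210 ± 55.7 and 2283 ± 197 CPM, and its genotypes overlapped under vehicle (1604 to 2233 against 2124 to 2266 CPM) and were apart under the drug (1708 to 2002 against 2011 to 2567 CPM). Of 12 mitosis genes 5 rose under vehicle and 9 under the drug, among them Top2a, which untangles DNA, by 0.55 in both.

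The drug called 0 of the chaperone genes and 0 of the S-phase genes in either genotype by edgeR, with 0 at an unadjusted p below 0.05. Of the mitosis genes it called 0 in U2AF1(WT) mice (1 below 0.05) and 3 in U2AF1(S34F) mice, all higher, with Plk1 (0.36, SE 0.09, adjusted p=0.0387) and Ccnb1 (0.20, SE 0.05, adjusted p=0.042) the first by p. None of these lists had a gene with an interaction call by edgeR, and 0 had an unadjusted p below 0.05. Under the combined contrast, where 25.1% of all genes passed in each direction, 13 of 18 processing genes, 19 of 20 S-phase genes and 12 of 12 mitosis genes rose, 9 of 12 chaperones rose and 2 fell, and 3 of 11 variants rose and 2 fell.

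Markers of other marrow cells moved with the groups too. Neutrophil granule genes (10 tested) summed to 66611 ± 3216, 73365 ± 18703, 102773 ± 20408 and 97785 ± 17677 CPM, with 5 higher in U2AF1(S34F) mice under vehicle and 4 under the drug. Pro-B and pre-B genes summed to 80.2 ± 23.9, 62.5 ± 36.9, 57.1 ± 41.6 and 31.2 ± 5.15 CPM. The drug lowered 3 of 9 of them in each genotype, and by genotype 0 of 9 passed under vehicle (0 below 0.05) and 3 of 8 fell under the drug. Erythroid genes (10 tested) summed to 501 ± 201, 716 ± 294, 580 ± 314 and 607 ± 151 CPM, with 1 lower by genotype under vehicle, 3 lower under the drug and 1 lower with the drug in U2AF1(S34F) mice. T and NK genes (8 tested) were at 67.0 ± 7.05, 76.1 ± 13.5, 86.5 ± 9.16 and 75.3 ± 7.70 CPM, and 4 passed by genotype under vehicle (3 higher, 1 lower) and 3 under the drug (all lower). Macrophage genes (8 tested) were at 211 ± 26.2, 202 ± 9.21, 255 ± 32.9 and 240 ± 29.2 CPM, with 3 and 1 calls by genotype. Stromal genes (7 tested), from cells of the recipient, were at 139 ± 23.1, 121 ± 60.9, 153 ± 38.8 and 128 ± 39.1 CPM, also with 3 and 1 calls. With the drug 1 macrophage gene fell in U2AF1(WT) mice and 2 T and NK genes fell in U2AF1(S34F) mice. For the drug edgeR called 0 neutrophil genes (1 at an unadjusted p below 0.05 in each genotype) and 0 stromal genes (0 below 0.05). The part of these cell types in the histone differences was not tested.

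Splice junctions were examined because the mutation and the drug both act on the spliceosome. Of 91 junctions inside 24 histone genes, 12 were annotated and carried 39541 reads over all mice, and the others carried 12886. In the 62 genes with a single annotated exon, 18 had any junction read on either strand. On the gene's own strand these came to 11166 reads beside 8893486 gene counts. Hist1h4m and Hist1h4n had junction reads on the opposite strand only (646 and 6, all in WT-vehicle mouse 1). Of the 11166 reads, 7489 were at 1 unannotated junction of Hist1h1c, listed at 0 to 1098 reads a mouse. Some others came from a single mouse, such as 688 reads at a junction of Hist1h1e. Whether these reads reflect splicing was not tested. Most junction reads fell on H2B genes with a long annotated transcript, of which 3 are described here, with the bases around the splice sites given so that the intron's ends can be seen. Capitals mark the first GT and the last AG of the intron.
Hist1h2bc donor: tgccaaGTaagcct
Hist1h2bc acceptor: ctctctctctctccctctctacAGgagg
Hist1h2be donor: aagcagGTgagccc
Hist1h2be upstream acceptor: gctcactttctttttcttcctaAGaaag
Hist1h2be downstream acceptor: actttctttttcttcctaagaaAGagat
Hist2h2bb donor: tcgcagGTgaggct
Hist2h2bb acceptor: tgagagcttcttgcactgctctAGgaat

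In Hist1h2bc the intron of 7554 bases joins base 23776490 to base 23784045 of chromosome 13. Its donor lies 12 bases after the last coding base and 41 bases before the end of the hairpin, so the spliced RNA lacks the hairpin printed above. It had 13583 reads. Per 1000 gene counts the junction reads inside this gene were 285, 166, 232, 319 and 225 in WT-vehicle mice, and 158, 213, 126, 159 and 236 with the drug. They were 143, 163, 130, 129 and 123 in S34F-vehicle mice, and 127, 130, 127, 146 and 98.7 with the drug. The means were 246 ± 59.0, 178 ± 44.8, 138 ± 15.8 and 126 ± 17.1 (SD, n=5). On this scale the genotypes did not overlap under vehicle and overlapped under sudemycin D6, and the drug groups overlapped in either genotype. Relative to all junction reads of the library, in place of the gene's counts, the level per 1e6 reads was 16.4 to 23.2, 11.2 to 14.1, 9.64 to 14.5 and 7.55 to 10.5 in the 4 groups. By this measure the genotypes were apart under both treatments, and the drug groups were apart in U2AF1(WT) mice and overlapped in U2AF1(S34F) mice. Junctions were described without a test.

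Hist1h2be has an annotated first exon far upstream, with a donor at 23712785 and 2 acceptors 4 bases apart, ending introns of 34945 and 34949 bases (minus strand). Both acceptors have an A before the AG. The upstream one had 9714 reads and the downstream one 11377. Reads were listed at both in 14 mice and at neither in 2 (WT mice 4 and 12, given vehicle and sudemycin D6), and the other 4 mice were listed at 0 for the downstream acceptor. Where both had reads the downstream share was 53.7 to 67.1% in U2AF1(WT) mice and 55.4 to 59.7% in U2AF1(S34F) mice. Exons of Hist1h2be overlap those of Gm11398 on the same strand, and the cause of these zeros was not tested.

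The annotated intron of Hist2h2bb (7770 bases), which joins base 96073900 to base 96081671 of chromosome 3, had 351, 361 and 314 reads in U2AF1(S34F) mice 6, 9 and 12 given sudemycin D6, and was listed at 0 in the other 17 mice. All listed reads of this intron therefore came from 3 of 5 mice of one group, while the gene's level in those mice (481, 463 and 480 CPM) was like that in the other 2 (464 and 434 CPM). Listed zeros beside high read numbers in other mice of a group also occurred at Hist1h2be. Whether a listed 0 means that the splice was absent was not tested. In Hist1h2bq and Hist1h2br, where every window recurs elsewhere, junction reads came to 272% and 163% of gene counts (773 and 1417 counts over all mice). How the 2 tables counted reads with several origins was not tested.

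**Figure D5:**
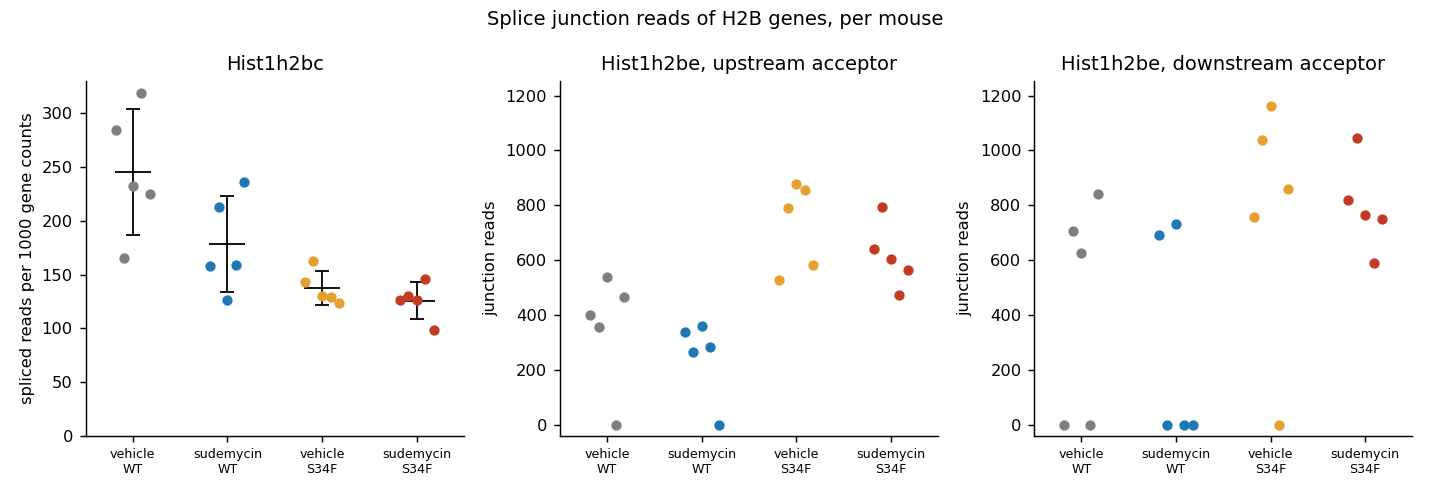
Splice junction reads of Hist1h2bc, per 1000 gene counts with mean and SD, and of Hist1h2be at its upstream and downstream acceptors, in each mouse (points), by group. Hist1h2bc values are highest in WT-vehicle mice (166 to 319), and several Hist1h2be mice are listed at 0.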

How the data were processed

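RNA was stranded, depleted of ribosomal RNA and read in pairs of 126 bases. The authors aligned reads with TopHat2 2.0.8 to mm9 and deposited raw counts per gene and per splice junction for each of 20 mice. The counting program, its strand setting and its treatment of reads with several alignments are not given in the sources used here. Gene models were GENCODE M1 on the same build.

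From the deposited counts, edgeR 4.0.16 in R 4.3.3 was run on each comparison's own 10 mice (filterByExpr, TMM, robust quasi-likelihood test, prior count 2, Benjamini-Hochberg adjustment over all genes tested, FDR<10%). The interaction used all 20 mice. CPM used TMM effective library sizes over 20 mice. The code was tested on simulated data. P-values measure the spread between recipient mice whose donor marrow had been pooled within each genotype. Alternatives were DESeq2 1.42.0 (test or size factors), no scaling, no filter, one model, FDR of 5%, the replicate number as block and each mouse left out.

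The histone genes and all lists were chosen with earlier results of these data known. Genes were named by rule: the 2 with the highest level per kilobase in each class, up to 3 higher and 3 lower calls of largest size in each comparison, and up to 2 calls of smallest p in each list. Hist1h1b, Hist1h2an, Hist1h2bn, Hist1h4c, Hist4h4, Hist2h2bb and the rest of the genes called under both treatments were named after their values were seen. Counting depth limits genes near the floor of 3 counts. Sequences were read from mm9, and the H4 proteins were translated from their coding sequences. No other protein sequences were used here. A gene that the rule also names is not reported here.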

Additional observations from a re-analysis of the deposited data

Results flagged for a closer look

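In groups of 5 mice, a level was singled out where the gap to the nearest mouse took over 0.71 of the group's range (Dixon's criterion). Of 112 groups checked, 11 met it, and chance alone singles out about 1 in 20. The groups were the class sums and the named histone genes.

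S34F-vehicle mouse 7 was high for the H1 sum (3819 CPM, others 3299 to 3375) and for Hist1h2bb (465 CPM, others 332 to 370). S34F-sudemycin mouse 10 was low for the H2B sum (1866 CPM, others 2249 to 2273), for all classes (9013 CPM, others 9796 to 9918) and for Hist1h2bl (95.4 CPM, others 110 to 115). WT-vehicle mouse 2 was high for Hist1h1a (355 CPM, others 166 to 212) and for Hist1h3c (272 CPM, others 189 to 209). S34F-vehicle mouse 5 was high for Hist1h1a (322 CPM, others 282 to 289) and low for Hist1h2ap (0.129 CPM, others 0.473 to 0.566). Hist1h2ap was high in WT-sudemycin mouse 9 (3.01 CPM, others 0.621 to 1.09), and Hist1h1t in S34F-sudemycin mouse 12 (1.01 CPM, others 0.127 to 0.339). The causes were not tested.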

How the results depend on the processing

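The drug calls in U2AF1(S34F) mice depended most on the processing. The 4 genes called became 2 without scaling factors, 2 without a filter on low counts, 0 in one model of all mice and 1 at an FDR of 5%. With each mouse left out in turn they ranged from 0 to 4, and in U2AF1(WT) mice from 0 to 1. Of 286 alternatives for single genes, 25 lost their call, all of them in these 4 genes, and 0 reversed. The genotype calls under vehicle (37) became 24 at an FDR of 5% and ranged from 25 to 43 with one mouse left out, lowest without WT-vehicle mouse 1. Under sudemycin D6 (22) they ranged from 16 to 27, lowest without WT-sudemycin mouse 8, and in the combined contrast (42) from 37 to 48. The interaction gave 0 calls throughout. With one mouse left out, the median log2 fold change ranged from 0.05 to 0.34 for the drug in U2AF1(WT) mice, from 0.19 to 0.32 for the genotype under vehicle, from −0.15 to 0.12 under sudemycin D6 and from −0.35 to −0.05 for the interaction. For mouse numbers shared by both genotypes, correlations ran from −0.11 to 0.15 under vehicle and from −0.18 to 0.37 under the drug. No differently numbered mice were correlated for reference, so these values cannot decide whether the numbers pair the samples. With the replicate block 33 (25 higher, 8 lower) and 18 (10 higher, 8 lower) genes were called. Depth limits Hist1h1t, Hist1h2ao and Hist1h2ap, and copies limit what single-gene counts mean.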
